A study of Gossypium hirsutum with 24 samples.

Results

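Anthers taken from 8 mm flower buds of upland cotton (Gossypium hirsutum) were compared with anthers taken from 7 mm buds. The comparison rests on the 3 arrays labelled as 8 mm anthers (replicates 1, 6 and 7) and the 3 labelled as 7 mm anthers (replicates 1, 2 and 3), which are 6 of the 24 Affymetrix Cotton Genome arrays of the series. Of 23977 probe sets that are not controls, 17666 exceeded background on at least 3 arrays and were tested; a probe set is a group of short probes for 1 transcript or for several related ones. The other 18 arrays hold anthers of 5 mm buds, the buds of each size with the anthers taken out, young leaf and whole seedlings, with 3 arrays each. The labels name no genotype, cultivar or treatment for any group. The arrays of a group are called biological replicates in the series text, with no word on the plants behind them, so the p-values measure the spread between these samples. That spread was estimated for each probe set from all 24 arrays within their groups, other tissues included, and not from the 6 anther arrays alone.

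The anther is the organ in which pollen is made. Inside it, pollen mother cells go through meiosis within a wall of callose and give microspores, which mature into pollen. The tapetum, the innermost layer of the anther wall, feeds the microspores, secretes the enzymes that free them and supplies material for the pollen coat, and then breaks down. The series text describes stages before, during and after meiosis, with the tapetum absent, present and degenerated, and says that bud size was matched to them. No source used here ties a size to a stage, so the groups are named by size. In whole anthers, fewer cells of a type and less RNA per cell cannot be told apart.

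The arrays of each size resembled each other more than those of the other size. Correlations between pairs of arrays were 0.984 to 0.987 within the 8 mm anthers, 0.989 to 0.995 within the 7 mm anthers and 0.958 to 0.978 between them. The ubiquitin control, read at its 3′ and 5′ ends, also moved with size. The 3′ minus 5′ difference of the ubiquitin control was 2.10, 1.41 and 1.97 on the 8 mm arrays, against 0.85, 0.63 and 0.67 on the 7 mm arrays, with no overlap. The same difference overlapped for the actin control, at 3.99, 3.39 and 3.47 against 3.42, 2.89 and 3.13. It also overlapped for the poly-A spike-in controls, at 1.23, 0.78 and 0.23 against 0.31, -0.22 and -0.06. The origin of these differences was not tested. With the ubiquitin difference as a covariate, a setting chosen after seeing the data, 478 probe sets were called higher and 420 lower. Among them were 327 of the 480 rises and 333 of the 534 falls given below. The 246 probe sets far higher in the rest of the bud than in anthers at 5 mm had medians of 4.07, 4.01 and 4.11 on the 8 mm anther arrays, against 3.79, 3.50 and 3.84 on the 7 mm arrays. The share of probe sets above background was 65.74% to 66.42% on the 8 mm arrays and 65.84% to 66.46% on the 7 mm arrays, and precision is limited by having 3 arrays a group.

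Between 8 and 7 mm, 480 probe sets rose in anthers (2.72% of those tested) and 534 fell (3.02%), together 1014 probe sets (5.74%), in similar number each way. A call needed an adjusted p under 0.05 by limma's moderated test and a log2 difference of at least 1, which is a change of at least 2-fold. In a fit of the 6 arrays alone, 261 of the 480 rises (54.4%) and 330 of the 534 falls (61.8%) kept their call. All levels below are the deposited log2 values and all differences are 8 mm minus 7 mm on that scale. The larger changes were also spread over both directions. Differences of at least 2 were seen in 134 probe sets that rose and 164 that fell, of at least 3 in 61 and 54, of at least 4 in 32 and 17, and of at least 5 in 12 and 6. The values of the 2 groups did not overlap in 453 of the 480 rises and 514 of the 534 falls, and together these 967 were 5.47% of the tested probe sets. Groups failed to overlap in 36.7% of all tested probe sets, called or not. The median difference over all tested probe sets was 0.

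The balance between the directions was not the same under every scaling. In the setting called spike-in scaling below, arrays were set to equal mean levels of the hybridisation spike-ins. Low values were then raised to a common floor. The median of all tested probe sets moved to -0.182, and 110 were called higher and 409 lower. The parts of the scaling and of the floor were not tested separately. Quantile normalization gave 499 higher and 509 lower, and centring on array medians gave 532 and 506. The spike-in means were 10.33, 9.98 and 9.44 on the 8 mm arrays, against 10.03, 9.51 and 9.16 on the 7 mm arrays, and the 2 groups overlapped. Each change below is therefore relative to the rest of the transcripts on the array.

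**Figure D1:**
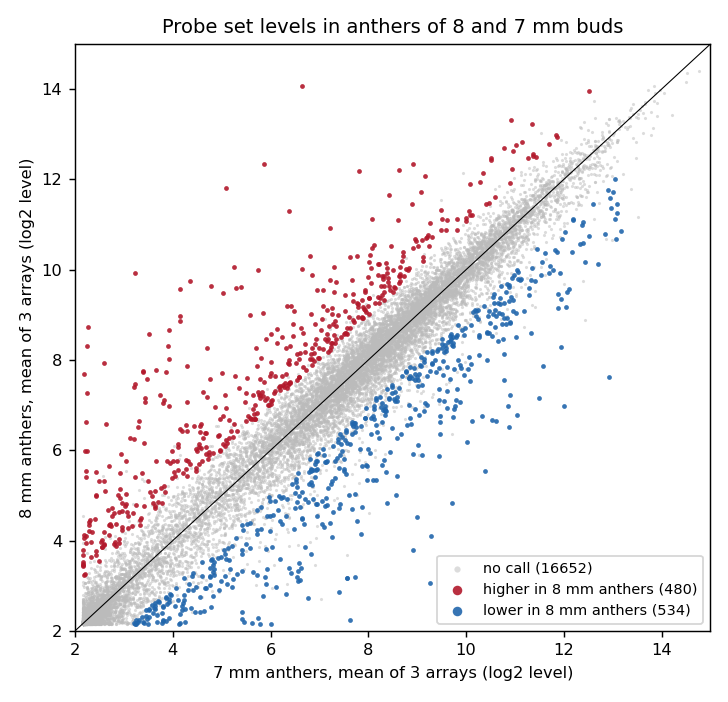
Mean level of each tested probe set in 8 mm anthers (vertical axis, log2, 3 arrays) against 7 mm anthers (horizontal axis, log2, 3 arrays), with the line of equality. The 480 probe sets that rose lie above the line and the 534 that fell lie below it, at all levels of the array's range.

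By their median, the probe sets that rose were lower in 5 and 7 mm anthers than in any other tissue and came above the others at 8 mm. Their median level was 5.65 in 5 mm, 5.96 in 7 mm and 7.87 in 8 mm anthers, while in buds without anthers it was 6.98, 7.00 and 7.07 at the same sizes, 7.42 in leaf and 7.69 in seedlings. Leaf or seedling lay at least 2 above the 7 mm anthers in 192 of the 480 (40.0%), against 13.5% of all tested probe sets, and at least 2 above the 8 mm anthers in 101 (21.0%), against 12.9%. For 235 of the 480 (49.0%) the 8 mm anthers were the highest of the 8 groups, against 12.1% of all tested, and 169 (35.2%) lay at least 1 above all 5 other tissue groups, against 4.46%. These shares use the arrays on which the calls were made and are a description. By the background cutoff of 2.23, a switch from background to a measured level was rare. That cutoff is 0.075 above the lowest value. A tied low value above it, such as 3.11 for LOC107922335 in 8 mm anthers, counts as measured, so the number of switches depends on the cutoff. At background on all 7 mm arrays and above it on all 8 mm arrays were 8 of the rises (1.67%), against 0.192% of all tested. At background on every array of the series outside the 8 mm anthers were 3 (0.625%), against 0.0396%.

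Most of the probe sets that fell had stood highest in 7 mm anthers. Their median level was 6.95 in 5 mm, 8.04 in 7 mm and 6.17 in 8 mm anthers, and in buds without anthers it stayed at 6.75, 6.74 and 6.72. Leaf had a median of 5.80 and seedlings one of 6.12. The 7 mm anthers were the highest of the 8 groups in 333 of the 534 (62.4%), against 15.2% of all tested, and 273 (51.1%) lay there at least 1 above all 5 other tissue groups, against 5.64%. At 8 mm, 297 of the falls (55.6%) had come within 1 of their level in 5 mm anthers, as had 95 of the rises (19.8%); over all tested probe sets the share was 84.7%. At background on all 8 mm arrays and above it on all 7 mm arrays were 16 of the falls (3%), against 0.442% of all tested. Bright probe sets were found on both sides. A mean of 10 or more was reached in 8 mm anthers by 86 of the rises (17.9%) and 31 of the falls (5.81%), against 12% of all tested. In 7 mm anthers it was reached by 27 of the rises (5.62%) and 126 of the falls (23.6%), against 12.4%. All these shares use the arrays on which the calls were made and are a description.

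**Figure D2:**
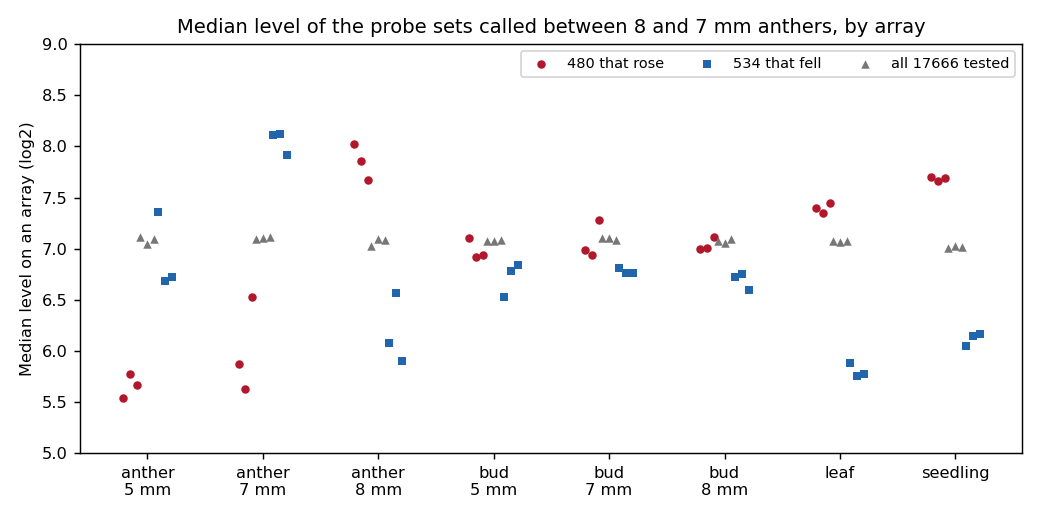
Median log2 level (vertical axis) of the 480 probe sets that rose, the 534 that fell and all 17666 tested, on each of the 24 arrays by tissue and bud size (horizontal axis). The risen probe sets have medians of 7.68 to 8.03 on the 8 mm anther arrays and 5.63 to 6.53 on the 7 mm arrays, and in buds both sets stay near one level at all sizes.

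Replicate 3 of the 7 mm anthers was nearer to the 8 mm level than its companions for most called probe sets. The median of the 480 rises was 8.03, 7.86 and 7.68 on the 8 mm arrays (replicates 1, 6 and 7), against 5.87, 5.63 and 6.53 on the 7 mm arrays (replicates 1, 2 and 3). The median of the 534 falls was 6.08, 6.57 and 5.90 on the 8 mm arrays, against 8.11, 8.12 and 7.92 on the 7 mm arrays. Replicate 3 was the highest 7 mm array in 378 of the rises and the lowest in 331 of the falls. It lay at least 2 above both other 7 mm arrays in 77 tested probe sets, of which 40 were called higher at 8 mm. Without it, 447 of the 480 rises and 435 of the 534 falls were still called. Called under each of the 6 omissions of a single array were 298 of the rises (62.1%) and 264 of the falls (49.4%).

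The probe sets marking the other flower parts had more rises than falls. Of the 246 set apart by their 5 mm levels, 41 rose (16.7%, against 2.72% of all tested) and 3 fell (1.22%, against 3.02%), with a median difference of 0.33, and they made up 8.54% of all rises. Of the 34 probe sets far higher in anthers than in the rest of the bud at 5 mm, 1 rose (2.94%) and 7 fell (20.6%), with a median difference of -0.86. Their median level was 7.50, 7.62 and 7.08 on the 8 mm arrays, against 8.32, 8.20 and 8.16 on the 7 mm arrays. Both sets were chosen on 5 mm arrays alone, and their part in the step was not tested. The 246 were chosen for low anther levels. Their medians were 3.79, 3.50 and 3.84 on the 7 mm anther arrays, and the lowest value is 2.16, which left less room to fall than to rise. The 34 were chosen for high anther levels. How far the choice set the balance of rises and falls in either set was not tested. Without the 246 probe sets, a choice made after seeing the data, 438 of the others were called higher and 531 lower.

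A single gene locus was annotated for 634 of the tested probe sets. Among them 26 probe sets of 25 loci rose and 26 probe sets of 22 loci fell, 4.10% each way, with a median difference of 0.02. Over all tested probe sets, 2.72% rose and 3.02% fell. All 26 rises and 23 of the 26 falls had groups that did not overlap. The groups also did not overlap in 94.4% of all 480 rises, 96.3% of all 534 falls and 36.7% of all tested probe sets. All of the called loci are protein-coding in the gene table of assembly Gossypium_hirsutum_v2.1. The tables give locus numbers and no product names, so no function is stated. The 15 largest rises and the 15 largest falls among calls without overlap are described below, 1 probe set a locus, arranged by where else they were detected; that arrangement was made after the values were seen. Upland cotton carries 2 related subgenomes, and 9 of the 15 rising and 8 of the 15 falling loci are read by probe sets of the s_at or x_at kind, which can bind several related transcripts, so which gene copy gave the signal is uncertain there.

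Among the 15 rises, 7 loci had their highest group mean in 8 mm anthers. The first 3 are given here, and 2 of these were at background outside anthers. The others were LOC107907413, LOC107919941, LOC107932200 and LOC107947118, described further below. LOC107930564 had 6.44, 6.46 and 5.83 in 8 mm anthers, against 2.40, 2.16 and 5.04 in 7 mm anthers, a difference of 3.04 (SE 0.45, adjusted p = 0.000196). It stood at 2.16 in buds, leaf and seedlings and at 2.17 in 5 mm anthers, and replicate 3 was the one 7 mm array with a clear level. LOC107937048 had 3.49, 4.22 and 3.34 in 8 mm anthers, against 2.16 on all 3 arrays of the 7 mm anthers, which is below the background of 2.23. The 8 mm level was at least 2.73-fold higher (adjusted p = 1.5e-06), and the other groups averaged 2.16 to 2.18. LOC107957278 had 6.86, 6.62 and 5.92 in 8 mm anthers, against 3.88, 3.68 and 4.87 in 7 mm anthers, a difference of 2.32 (SE 0.29, adjusted p = 4.05e-05). Its buds averaged 3.08 to 3.27 over the sizes, leaf 3.57 and seedlings 4.73, so that it was measured above background in every group, and in seedlings above the 7 mm anther mean.

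A pair of rising loci already gave a bright signal in anthers of all sizes. LOC107907413 had 12.83, 12.79 and 12.30 in 8 mm anthers, against 10.69, 10.56 and 11.59 in 7 mm anthers, a difference of 1.69 (SE 0.23, adjusted p = 9.2e-05). Its second probe set rose too, by 1.60 (adjusted p = 5.47e-07), with means of 4.20 at 8 mm and 2.60 at 7 mm. LOC107919941 had 12.32, 12.35 and 11.74 in 8 mm anthers, against 10, 10.04 and 10.98 in 7 mm anthers, a difference of 1.80 (SE 0.31, adjusted p = 0.00072). In leaf LOC107907413 averaged 7.09 and LOC107919941 8.52, below every anther and bud group of the same locus.

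LOC107928766 and LOC107932200 were other floral transcripts, higher in buds than in leaf. LOC107928766 had 10.90, 9.03 and 7.20 in 8 mm anthers, against 5.66, 5.34 and 6.56 in 7 mm anthers, a difference of 3.19 (SE 0.59, adjusted p = 0.00134). Anthers of 5 mm averaged 9.48, near the 8 mm mean of 9.04, and the spread at 8 mm was wide (SD 1.85). LOC107932200 had 7.42, 7.62 and 7.92 in 8 mm anthers, against 6.22, 6.04 and 6.44 in 7 mm anthers, a difference of 1.42 (SE 0.27, adjusted p = 0.00158). Its second probe set differed by -1.41 (adjusted p = 0.475), so the 2 probe sets of this locus disagree in sign and the second was not called.

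In another 3 rises, leaf and seedlings held far more of the transcript than any anther. LOC107938326 had 4.88, 3.82 and 5.13 in 8 mm anthers, against 3.02, 3.10 and 3.42 in 7 mm anthers, a difference of 1.43 (SE 0.31, adjusted p = 0.00455), while leaf averaged 11.72 and buds of 8 mm 9.96. LOC107940910 had 6.61, 6.40 and 6.11 in 8 mm anthers, against 4.28, 4.52 and 5.15 in 7 mm anthers, a difference of 1.72 (SE 0.25, adjusted p = 0.000173). Leaf averaged 12.69 and seedlings 13.21, so its level in 8 mm anthers stayed far below theirs. LOC107933118 had 4.16, 4.49 and 6.18 in 8 mm anthers, against 2.52, 2.59 and 3.66 in 7 mm anthers, a difference of 2.02 (SE 0.56, adjusted p = 0.0223), with 12.79 in leaf. That call did not hold without replicate 1 or 2 of the 7 mm anthers (1.82 and 1.85) or replicate 7 of the 8 mm anthers (1.40).

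LOC107925162, LOC107940712 and LOC107908811 reached their highest group mean in seedlings. LOC107925162 had 9.78, 10.02 and 8.70 in 8 mm anthers, against 6.80, 6.79 and 8.29 in 7 mm anthers, a difference of 2.20 (SE 0.37, adjusted p = 0.000619). LOC107940712 had 5.36, 4.81 and 3.09 in 8 mm anthers, against 2.16, 2.16 and 2.54 in 7 mm anthers, a difference of 2.13 (SE 0.39, adjusted p = 0.00126), and buds averaged 2.16 at every size. LOC107908811 had 10.49, 6.37 and 6.26 in 8 mm anthers, against 4.52, 5.06 and 5.45 in 7 mm anthers, a difference of 2.70 (SE 0.72, adjusted p = 0.0177). Replicate 1 made most of that difference, which was 1.31 without it, and the call was lost without replicate 1 or 2 of the 7 mm anthers (2.45 and 2.72).

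The remaining named rises were LOC107947118 and LOC107912138, measured above background in all groups. LOC107947118 had 6.04, 5.38 and 8.14 in 8 mm anthers, against 2.87, 2.99 and 3.97 in 7 mm anthers. The difference of 3.24 (SE 0.59, adjusted p = 0.00125) was the highest among the annotated rises, and a second probe set near background differed by 0.22 (adjusted p = 0.331). LOC107912138 had 6.52, 6.12 and 6.58 in 8 mm anthers, against 4.63, 3.83 and 5.23 in 7 mm anthers, a difference of 1.84 (SE 0.31, adjusted p = 0.000593), with 3.45 in 5 mm anthers and about 7 in buds. Replicate 3 was the highest 7 mm array in 14 of the 15 rising loci. With spike-in scaling the calls of 11 of the 15 were lost and none changed sign. The smallest values left were 0.21 for LOC107937048, 0.77 for LOC107938326, 0.78 for LOC107940712 and 1.03 for LOC107933118. The common floor of that setting compresses differences at low levels, and its part in these values was not tested. The calls that held were those of LOC107928766, LOC107930564 (at 1.86), LOC107957278 and LOC107925162. In a fit of the 6 arrays alone 8 of the 15 were lost. With the replicate number as a block 4 were lost. A fit of the 9 anther arrays lost LOC107928766, LOC107908811 and LOC107933118. With the ubiquitin covariate the calls of LOC107908811 (2.35, adjusted p = 0.0777) and LOC107933118 (1.30, adjusted p = 0.151) were lost.

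**Figure D3:**
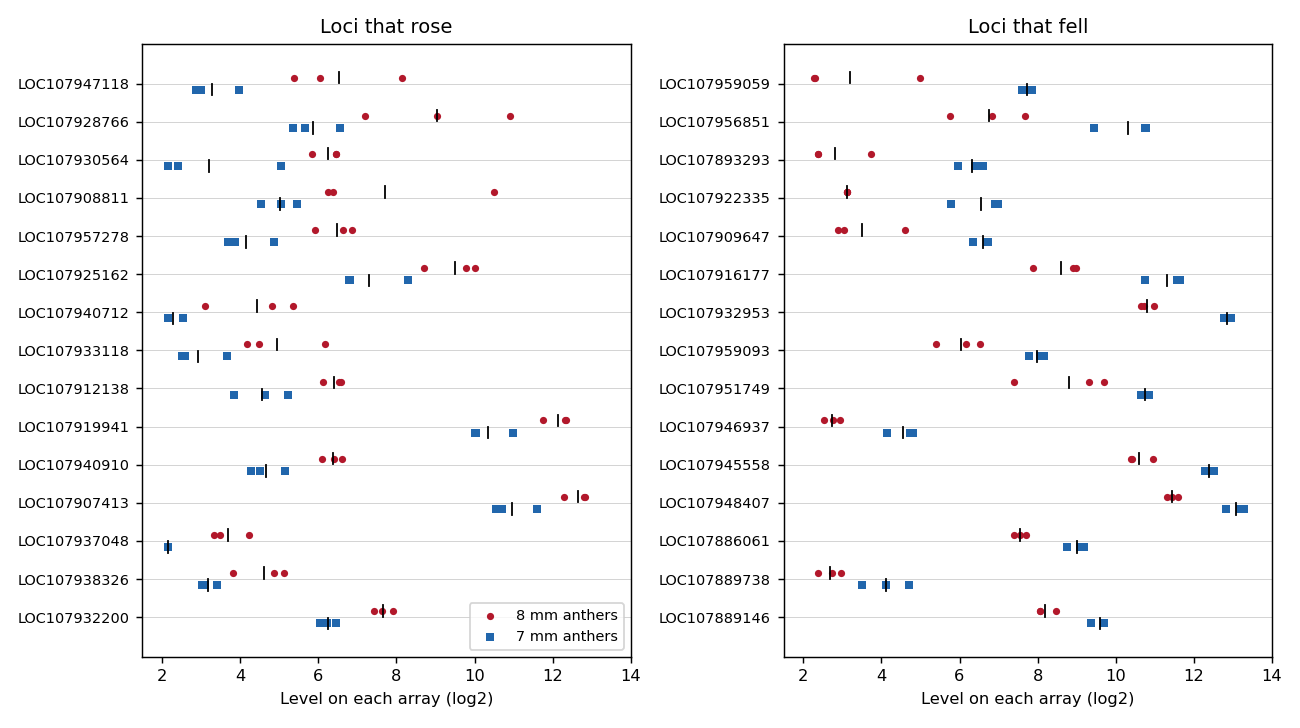
Log2 level (horizontal axis) of the annotated loci with the 15 largest rises and the 15 largest falls, on each of the 3 arrays of 8 mm anthers (red circles) and of 7 mm anthers (blue squares); vertical ticks are group means. The groups do not overlap for any of these loci, as the naming rule requires, and the 8 mm arrays of LOC107908811 and LOC107928766 spread widely.

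Among the falls, 3 loci were read by a probe set whose mean was higher in 7 mm anthers than in any other group and low in most other tissues. LOC107959059 had 4.99, 2.29 and 2.27 in 8 mm anthers, against 7.86, 7.59 and 7.75 in 7 mm anthers, a difference of -4.55 (SE 0.48, adjusted p = 8.01e-06). It averaged 2.27 in 5 mm anthers and 2.21 to 3.12 in the other tissues, and replicate 1 was the one 8 mm array that kept part of the level. Of its 6 probe sets a second was called, at -2.64 (adjusted p = 0.0238), and the others had -1.88, -1.77, -0.05 and 0. The pattern of levels across tissues was that of the first probe set: the second averaged 7.28 in 7 mm anthers and 8.23 in leaf, and the one at -1.77 averaged 8.81 in 7 mm anthers, 10.68 in 7 mm buds and 11.29 in leaf. LOC107956851 had 7.68, 6.83 and 5.77 in 8 mm anthers, against 10.77, 10.76 and 9.44 in 7 mm anthers, a difference of -3.56 (SE 0.71, adjusted p = 0.00249), with 8.04 ± 2.25 in 5 mm anthers (SD, n = 3) and 3.50 to 4.17 elsewhere. LOC107893293 had 2.37, 2.37 and 3.72 in 8 mm anthers, against 6.60, 6.40 and 5.95 in 7 mm anthers, a difference of -3.49 (SE 0.68, adjusted p = 0.00201). Its 5 mm anthers averaged 3.98, with 6.63, 2.96 and 2.35 on replicates 1, 3 and 4, so that replicate 1 was above every 7 mm array. Seedlings, at 4.65, were the highest outside the anther.

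Another 4 falls had their peak in 7 mm anthers on a base that all tissues shared. LOC107932953 had 10.99, 10.64 and 10.73 in 8 mm anthers, against 12.76, 12.80 and 12.96 in 7 mm anthers, a difference of -2.05 (SE 0.20, adjusted p = 3.41e-06), with 9.98 to 11.29 in the other groups. LOC107945558 had 10.42, 10.94 and 10.40 in 8 mm anthers, against 12.35, 12.52 and 12.29 in 7 mm anthers, a difference of -1.80 (SE 0.38, adjusted p = 0.00428). Its other 2 probe sets were called lower too, at -1.77 and -1.21, and in the second of these the groups overlapped. LOC107948407 had 11.32, 11.58 and 11.43 in 8 mm anthers, against 13.17, 13.27 and 12.82 in 7 mm anthers, a difference of -1.64 (SE 0.35, adjusted p = 0.00405). LOC107951749 had 9.32, 9.69 and 7.40 in 8 mm anthers, against 10.65, 10.86 and 10.70 in 7 mm anthers, a difference of -1.93 (SE 0.45, adjusted p = 0.00832), which was -1.23 without replicate 7 of the 8 mm anthers. All 4 had a higher mean in 7 mm anthers than in any other group, though replicate 1 of the 5 mm anthers had 13.17 for LOC107948407.

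For 4 falls the buds or another tissue held as much as the 7 mm anthers or more. LOC107922335 had 3.11 on all 3 arrays of 8 mm anthers, a tied value with no measured spread, against 6.98, 6.91 and 5.78 in 7 mm anthers, a difference of about -3.45 (SE 0.67, adjusted p = 0.00196). Buds of 8 mm averaged 6.62 and leaf 7.50, and the 8 mm anthers were the lowest of the 8 groups. LOC107909647 had 3.05, 4.60 and 2.88 in 8 mm anthers, against 6.70, 6.74 and 6.34 in 7 mm anthers, a difference of -3.08 (SE 0.62, adjusted p = 0.00264), with 7.18 in 8 mm buds. A second probe set of this locus, with lower levels, differed by -0.91 and was not called (adjusted p = 0.354). LOC107946937 had 2.52, 2.76 and 2.94 in 8 mm anthers, against 4.80, 4.14 and 4.74 in 7 mm anthers, a difference of -1.82 (SE 0.31, adjusted p = 0.00066), and its anther series ran 6.49, 4.56 and 2.74 at 5, 7 and 8 mm. LOC107916177 had 8.90, 8.98 and 7.88 in 8 mm anthers, against 11.57, 11.65 and 10.74 in 7 mm anthers, a difference of -2.73 (SE 0.78, adjusted p = 0.0266), with 13.89 in leaf. That call was lost when any of 4 single arrays was left out, with differences of -2.38 to -2.89.

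The last 4 named falls had differences between -1.96 and -1.39. LOC107959093 had 5.39, 6.53 and 6.18 in 8 mm anthers, against 8.06, 7.77 and 8.15 in 7 mm anthers, a difference of -1.96 (SE 0.24, adjusted p = 3.39e-05). LOC107889146 had 8.06, 8.46 and 8.07 in 8 mm anthers, against 9.69, 9.71 and 9.37 in 7 mm anthers, a difference of -1.39 (SE 0.31, adjusted p = 0.00511), and leaf averaged 11.80. LOC107886061 had 7.40, 7.55 and 7.71 in 8 mm anthers, against 8.74, 9.20 and 9.09 in 7 mm anthers, a difference of -1.46 (SE 0.42, adjusted p = 0.0276). That call was lost under 5 of the 6 omissions of a single array. Further probe sets of this locus, with lower levels, differed by -0.13 (adjusted p = 0.484) and -0.73 (adjusted p = 0.0563) and were not called. LOC107889738 had 2.74, 2.96 and 2.38 in 8 mm anthers, against 4.12, 4.71 and 3.49 in 7 mm anthers, a difference of -1.41 (SE 0.28, adjusted p = 0.00223). A further probe set of this locus, averaging 11.81 at 8 mm and 12.33 at 7 mm, differed by -0.52 and was not called (adjusted p = 0.0911). Another differed by -0.23 and was not called either (adjusted p = 0.84). With spike-in scaling the calls of 3 of the 15 falling loci were lost (LOC107886061, LOC107946937 and LOC107889738, the last at -0.78), and none changed sign. In a fit of the 6 arrays alone LOC107889738 and LOC107951749 were lost. With the replicate number as a block 6 of the 15 were lost, LOC107922335 and LOC107889146 among them. In a fit of the 9 anther arrays LOC107956851, LOC107893293, LOC107909647, LOC107916177, LOC107951749, LOC107945558 and LOC107948407 were lost. Adjusted p for them was 0.0558 to 0.0914. With the ubiquitin covariate 3 were lost: LOC107886061 at -0.56 (adjusted p = 0.13), LOC107916177 at -2.11 (adjusted p = 0.132) and LOC107951749 at -1.31 (adjusted p = 0.0658).

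The called loci not yet given were 10 that rose, on 1 probe set each, and 7 that fell, on 8 probe sets. The rises were LOC107900642 at 1.40, LOC107929175 at 1.39, LOC107905695 at 1.28, LOC107896815 at 1.26, LOC107925445 at 1.23, LOC107926078 at 1.14, LOC107914201 at 1.10, LOC107959846 at 1.07, LOC107924606 at 1.05 and LOC107959830 at 1.05. None of these 10 had overlapping groups, and neither did 94.4% of all 480 rises. Other tested probe sets of LOC107896815 (0.57), LOC107900642 (0.07) and LOC107925445 (at most 0.50) were not called. The falls were LOC107956913 at -1.58, LOC107945134 at -1.39, LOC107932144 at -1.33, LOC107887357 at -1.13, LOC107927185 at -1.07, LOC107913168 at -1.04 and LOC107923964, and the groups overlapped in LOC107956913 and LOC107932144. LOC107923964 had both of its probe sets called lower, at -1.22 (adjusted p = 0.00919) and -1.12 (adjusted p = 0.00897). Probe sets that share the stem of their identifier did not always differ the same way. Of 1746 stems with at least 2 tested probe sets, 139 had a call, and in 102 of these all tested probe sets differed the same way. At least 2 probe sets were called in 33 stems, and 1 of these stems had calls in both directions.

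The 2 widest rises and 2 widest falls among calls without overlap on probe sets with no annotated locus were larger still. The one that rose most had 14.13, 14.31 and 13.76 in 8 mm anthers, against 3.42, 3.35 and 13.18 in 7 mm anthers, a difference of 7.41 (SE 1.55, adjusted p = 0.00359). Replicate 3 of the 7 mm anthers was thus almost as high as the 8 mm arrays, and the difference was 10.68 without it. The call was lost in fits of the 6 arrays alone (adjusted p = 0.172) and of the 9 anther arrays (adjusted p = 0.105). It was also lost with the replicate number as a block (adjusted p = 0.0628). The same probe set had 7.98, 7.95 and 8.45 in 8 mm buds without anthers, against 2.66, 2.39 and 3.22 in 7 mm buds, a difference of 5.37 whose adjusted p was 0.232. The one that rose next most had 10.71, 10.93 and 8.16 in 8 mm anthers, against 2.36, 2.36 and 4.96 in 7 mm anthers, a difference of 6.71 (SE 0.61, adjusted p = 1.35e-06), and leaf, at 6.66, was the other group with a clear level. The one that fell most had 3.02, 3.17 and 2.97 in 8 mm anthers, against 9.62, 9.71 and 8.45 in 7 mm anthers, a difference of -6.20 (SE 0.54, adjusted p = 7.52e-07). Anthers of 5 mm averaged 7.94 on it and the other tissues 2.17 to 3.24, so it was an anther transcript until 7 mm. The one that fell next most had 2.43, 2.16 and 2.16 in 8 mm anthers, against 6.51, 6.68 and 9.66 in 7 mm anthers, a difference of -5.37 (SE 1.64, adjusted p = 0.038). Leaving out any 1 of the 6 arrays ended that call, with adjusted p of 0.058 to 0.151.

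Outside the anther the same size step gave few calls. In buds without anthers, 13 probe sets were higher at 8 mm than at 7 mm (0.0736% of those tested) and 31 lower (0.175%), together 44 (0.249%). This count moved with the bud arrays used: it was 132 with array weights, 100 without 4 arrays that stood apart (3 of buds and 1 of 5 mm anthers), and 15 without replicate 5 of the 8 mm buds. Replicate 3 of the 7 mm buds lay at least 2 below both its companions in 639 tested probe sets, and its ubiquitin 3′ minus 5′ difference was 2.41, against -0.09 and -0.12 in them. The probe sets that rose in anthers had a median difference of 1.54 there and -0.03 in buds, and those that fell had medians of -1.55 in anthers and -0.03 in buds. Called in the same direction in both tissues was 1 probe set, which is 0.0986% of the anther calls and 2.27% of the bud calls, and 1 was called in opposite directions.

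The difference between the 2 steps was tested as the step in anthers minus the step in buds. It was positive in 436 probe sets (2.47% of those tested) and negative in 269 (1.52%). Together these 705 were 3.99% of the tested probe sets. Of the 436, 286 rose in anthers and were not called in buds, 1 rose in anthers and fell in buds, 25 were called in buds alone, as falls, and 124 were called in neither tissue. Of the 269, 218 fell in anthers and were not called in buds, 9 were called in buds alone, as rises, and 42 were called in neither. Of the rises in anthers, 59.8% thus differed from the bud step, as did 40.8% of the falls. The rises and falls were called on the same anther arrays, and the anther step is part of this difference. These shares are therefore a description. With spike-in scaling the median bud step was -0.0462, and 37 differences between the steps were called positive and 56 negative.

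Among the named loci, 11 of the 15 rises and 7 of the 15 falls differed from the bud step. These loci were chosen for large anther steps, which are part of the difference, so the counts are a description. LOC107930564 and LOC107957278 had bud steps of 0.00 and -0.20 and differences between tissues of 3.04 (SE 0.63, adjusted p = 0.00828) and 2.52 (SE 0.41, adjusted p = 0.00141). LOC107959059 had a bud step of -0.07 and a difference between tissues of -4.48 (SE 0.68, adjusted p = 0.00101). LOC107948407 had a bud step of 0.51, opposite in sign to its anther step, and a difference of -2.15 (SE 0.49, adjusted p = 0.0147). These 4 and LOC107959093 kept the call in all 12 omissions of a single anther or bud array. LOC107893293 lost it in 11 of the 12, LOC107928766 in 8, LOC107908811 in 7, LOC107951749 in 3 and LOC107925162 in 1. With spike-in scaling all 5 named positive differences and 3 of the 5 negative ones lost their call, and LOC107959059 and LOC107959093 kept theirs. With the ubiquitin covariate 3 of the 5 positive and 3 of the 5 negative ones lost it, LOC107948407 among them (-1.56, adjusted p = 0.106). With the arrays of the 4 compared groups alone, 4 of the positive ones lost it, LOC107930564 included (adjusted p = 0.0935), and 1 of the negative ones, LOC107951749.

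**Figure D4:**
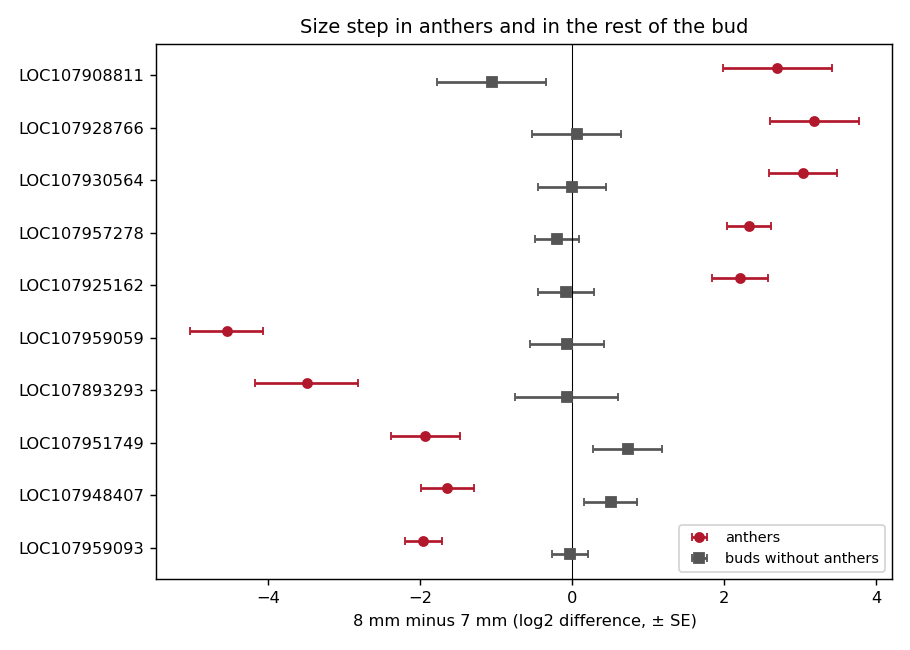
Difference of 8 mm minus 7 mm (horizontal axis, log2, ± SE from limma) in anthers (red circles) and in buds without anthers (grey squares) for the 5 annotated loci with the largest positive and the 5 with the largest negative difference between the steps. The bud steps lie between -1.06 and 0.73, and the anther steps at 2.20 or above for the first 5 and at -1.64 or below for the others.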

How the data were processed

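Total RNA of dissected tissue was labelled with biotin by a 3′ in vitro transcription method, per the labels' protocols. The authors deposited log2 levels, and the submitters' processing notes name GCRMA, a background correction, normalization and summary of probes, without version or options. The lowest value of the table, 2.16, made up 26.2% of all values, which compresses differences near it. No further normalization was applied, and all 24 columns matched a sample label.

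Background (2.23) was the 95th percentile of 69 reporter and tag controls, whose targets the labels say were not added. All 155 controls were left out of the tests. The limma package (version 3.58.1, R 4.3.3) fitted the 8 group means to the 24 arrays, with two-sided moderated tests and Benjamini-Hochberg adjustment within each comparison. Where a group lay at background on all arrays, a fold is a lower bound. Probe sets far higher in 5 mm buds or in 5 mm anthers differ by at least 4 with adjusted p under 0.05. The script was tested on simulated data.

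The annotation listed 743 probe sets, 697 with 1 symbol and 46 with several. None of 12 product-name gene lists found a member. Named were the 15 loci that rose and fell most among calls without overlap, 1 probe set each, the 2 unannotated probe sets that rose and fell most, and the 5 loci with the largest difference between tissues each way. Members and lists were chosen with earlier results of these data known. Alternatives covered scaling, filter, floor, variance prior, array weights, arrays fitted, thresholds, kinds of probe set, a block for the replicate number and single arrays left out. Replicate numbers do not pair the samples: 8 and 7 mm anthers share number 1 alone. Scan dates and slides were not examined. Figures were drawn with matplotlib 3.10.9.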

Additional observations from a re-analysis of the deposited data

Results flagged for a closer look

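The step from 7 to 8 mm differed between anthers and the rest of the bud, by the limma test of the anther step minus the bud step, in 436 probe sets with a positive and 269 with a negative difference. The loci with the largest positive differences were LOC107908811 at 3.75 (SE 1.01, adjusted p = 0.0364), LOC107928766 at 3.13 (SE 0.83, adjusted p = 0.0339), LOC107930564 at 3.04, LOC107957278 at 2.52 and LOC107925162 at 2.28 (SE 0.52, adjusted p = 0.0144). Those with the largest negative differences were LOC107959059 at -4.48, LOC107893293 at -3.43 (SE 0.96, adjusted p = 0.0429), LOC107951749 at -2.66 (SE 0.64, adjusted p = 0.0204), LOC107948407 at -2.15 and LOC107959093 at -1.93 (SE 0.34, adjusted p = 0.00256). For LOC107908811 the bud step ran the other way, at -1.06, and for LOC107951749 it was 0.73.

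The reporter control RPTR-Ghi-X03453-2_s_at, for which the labels say no target was added, had signal on every array. It averaged 14.34 ± 0.13 in 8 mm anthers and 14.25 ± 0.12 in 7 mm anthers (SD, n = 3 each), and ranged from 13.86 to 14.45 over all arrays. It was left out of the tests, and the origin of the signal was not tested. Dixon's test for single outlying samples was not run, since every group has 3 arrays.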

How the results depend on the processing

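No named difference changed sign in 1078 recalculations of 44 differences; 882 kept their call and 196 lost it. Of 129 recalculated counts, 89 stayed within 1.5 times. The others follow, and their cause was not tested except where fewer probe sets, fewer arrays or a stricter threshold set them. Counts higher in 8 mm anthers became 110 with spike-in scaling, 274 with the compared arrays alone, 1158 by adjusted p alone, 117 at adjusted p under 0.01 and a difference of at least 2, 61 in a test against 1, and 249 without s_at and x_at probe sets. Counts lower became 884 with array weights, and 1051, 107, 47 and 284 under the last 4 of those settings, 296 with the replicate number as a block (384 higher) and 832 without 4 arrays standing apart from their groups (1 of 5 mm anthers, 3 of buds). Bud calls became 132 with array weights, 20 with the compared arrays alone, 6 and 1 at the stricter thresholds, 1 with the block and 100 without those 4 arrays. Positive differences between the steps became 37 with spike-in scaling, 80 and 17 at the stricter thresholds, 251 without s_at and x_at probe sets, 276 with the block and 232 with the ubiquitin covariate, chosen after seeing the data. Negative ones became 56, 45, 18, 127 and 177 under these settings up to the block, 566 with array weights and 521 without the 4 arrays. Single arrays left out gave 358 to 526 higher and 334 to 572 lower in anthers, 15 to 46 bud calls, and 256 to 588 positive and 145 to 480 negative differences between steps. The 334 came without 7 mm anther replicate 2, which also gave the 256 and 145; the 480 came without 7 mm bud replicate 2, and 284 positive differences without 8 mm bud replicate 5. Bud calls were 28, 21 and 15 without 7 mm bud replicate 2, 8 mm bud replicate 4 and replicate 5. Signal near background limits low probe sets: differences from the lowest value are compressed.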
